A study of Mus musculus with 10 samples.

Results

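The respiratory chain subunits are the nuclear-encoded proteins that make up complexes I to V of the mitochondrial inner membrane, with cytochrome c. They were chosen by the platform's gene symbol alone: symbols beginning with Ndufa, Ndufb, Ndufc, Ndufs, Ndufv, Uqcr, Atp5, Cox4i, Cox5, Cox6, Cox7 or Cox8, and Sdha, Sdhb, Sdhc, Sdhd, Cyc1 and Cycs, without the Ndufaf assembly factors. The rule found 85 genes on 121 probes, of 19532 genes on 32664 probes that carry a single symbol. Of these genes, 35 belong to complex I, 4 to complex II, 9 to complex III, 19 to complex IV and 17 to complex V, and Cycs stands by itself; Ndufa4 was counted with complex IV, where it resides. Both groups were skin of Tsk2 mice, 4 samples taken at 1 month of age and 4 at 4 months. Tsk2 is a mouse model of scleroderma, written Tsk2/+ in the study's design and called transgenic in the sample titles, and as background it is known as a dominant mutation of the type III collagen gene Col3a1. All samples carry Tsk2, so the comparison is one of age within Tsk2 skin, and skin without Tsk2 was not analysed here. The labels do not give the strain, sex, body site, or whether a sample is 1 animal, so the p-values below measure the spread between these samples. Each skin RNA, in Cy3, was hybridised on a 2-colour Agilent array against a cell line RNA named UMR, in Cy5, and the unit throughout is the log2 ratio of skin over that reference.

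The respiratory chain oxidises NADH and succinate and passes the electrons to oxygen. Complex I takes electrons from NADH and complex II from succinate, ubiquinone carries them to complex III, cytochrome c carries them to complex IV, and complexes I, III and IV pump protons that drive ATP synthesis by complex V. Most subunits have 1 form in all tissues. Complex IV has several subunits with another form made mainly in heart and skeletal muscle, and skin samples can hold both the skin itself and the thin muscle layer under it. In bulk RNA, fewer cells of a type and less RNA per cell cannot be told apart.

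Arrays of the same skin sample were averaged, which gave 8 skin samples from 10 arrays. Between 21665 and 30425 probes held a value on an array, and 112 to 115 of the 121 subunit probes did. The deposited sign was turned so that a positive value means more RNA in skin; this is the likely direction, since with it keratinocyte genes had a median of 3.65 to 5.70 and skeletal muscle genes of 3.43 to 6.16 on the 10 arrays. With the deposited sign kept, each higher or lower given below would be reversed. The log base is not given in the sources used here and was taken as 2 from the range of the values. Some samples stood apart for the genes described here: 4-month sample 4 was low for most subunits, and 1-month sample 2 and 4-month sample 3 were high for muscle and keratinocyte genes within their age.

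Most subunits had a higher mean RNA level at 4 months than at 1 month. Of the 82 subunit genes that could be tested, 77 had a positive difference between 4 months and 1 month, against 52.3% of the 13501 genes tested, and 9 of the 82 passed the limma test with an adjusted p under 0.05 as higher, none as lower. That is 11% of the subunits, against 4.19% of all genes called higher, 3.06% called lower and 7.25% in either direction. All 4 samples of 4 months lay above all 4 of 1 month for 26 subunits, or 31.7%, where 10.9% of all genes did, and no subunit had the reverse order, which 10.2% of all genes had. The median difference over the subunits was 0.67, against 0.03 over all genes, and the values ran from -1.05 for Cox6b2 to 2.05 for Cox7a1. Samples share ID numbers, and the count of 9 depends on how these enter the fit. Without the ID number as a block it was 27, where 8.24% of all genes were called higher. On means per ID number it was 0, and no gene of the 13501 passed. There 24 subunits and 2530 genes had an unadjusted p under 0.05. After quantile normalization between arrays 71 of the 82 differences were above 0, with a median of 0.57. Without 4-month sample 4, 45 of the 82 passed the test as higher, where 9.46% of all genes did, and without 1-month sample 1 none of 81 did, where 0.79% of all genes did, although 75 of the 81 differences were above 0. At an unadjusted p under 0.05 the count was 42 with all samples, or 51.2% where 24.3% of all genes passed, and 29 without 1-month sample 1. Cox4i2, Cox7b2 and Cox8c, forms of complex IV subunits known from lung or testis, lacked values in too many samples and were not tested.

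**Figure D1:**
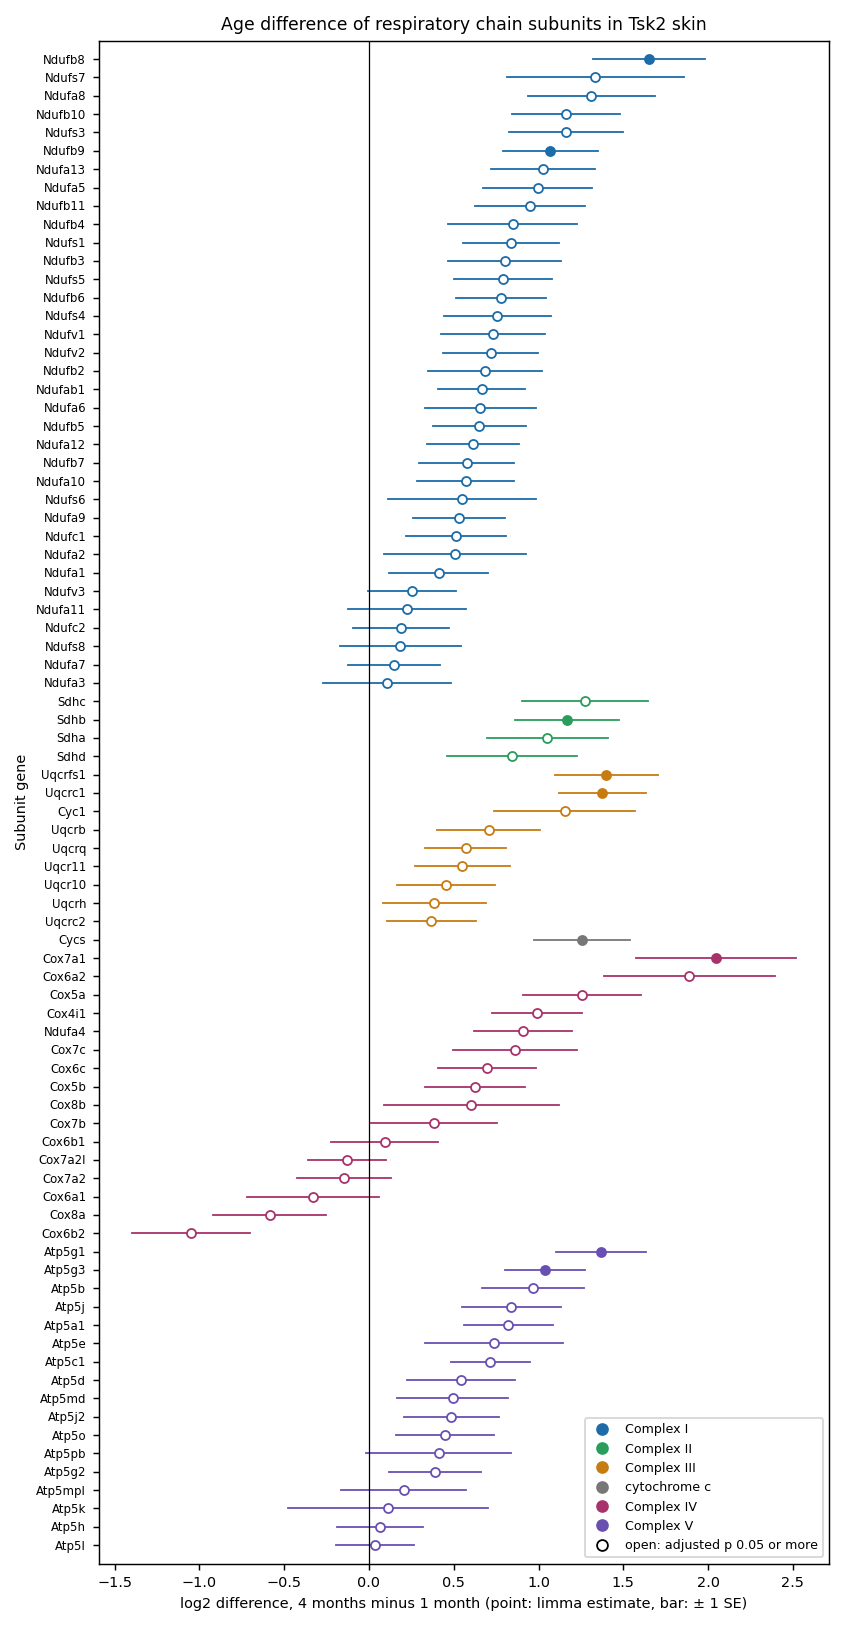
The horizontal axis is the log2 difference of 4 months minus 1 month for each of the 82 subunit genes tested, with bars of 1 standard error and colours by complex; filled points have an adjusted p under 0.05. The points lie to the right of 0 for 77 genes, and the 5 to the left all belong to complex IV.

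Complex I, which carries the entry of electrons from NADH, had a positive difference for all 35 subunits, from 0.11 for Ndufa3 to 1.65 for Ndufb8, with a median of 0.68. The test called 2 of them, or 5.71%, where 4.19% of all genes were called higher. The ages did not overlap for 9, or 25.7%, with 4 months higher, against 10.9% of all genes. Ndufb8, an accessory subunit of the membrane arm encoded on chromosome 19, read -1.05, -1.38, -0.62 and -0.44 in 1-month samples 1 to 4 and 0.80, 1.39, 0.90 and 0.20 in 4-month samples 1 to 4. Every 4-month sample was above the reference RNA and every 1-month sample below it. The difference was 1.65 ± 0.33 (SE, n = 4 per age; limma adjusted p = 0.021), and without 1-month sample 1 its adjusted p was 0.086. Ndufb9, another accessory subunit of the membrane arm, on chromosome 15, read 0.19, 0.34, -0.07 and -0.08 at 1 month and 1.18, 1.55, 1.56 and 0.57 at 4 months. The ages did not overlap, with sample 4 lowest of the 4-month samples. Ndufb9 differed by 1.07 ± 0.28 (limma adjusted p = 0.049), and it kept an adjusted p under 0.05 only without 4-month sample 4 (0.0060) among the 8 fits that left out a sample, the other 7 giving 0.065 to 0.16. In the limma fit over all probes, the only probe of Ndufb9 was not called (adjusted p = 0.057). Ndufs7, an iron-sulphur core subunit that hands electrons to ubiquinone, read 0.34, -1.04, -0.44 and -0.36 at 1 month and 1.45, 1.88, 0.54 and 0.08 at 4 months. Its ages overlapped, and the difference of 1.33 ± 0.52 did not pass the test (limma adjusted p = 0.155). Subunits of the catalytic end were not called: Ndufs1, the largest iron-sulphur subunit of the NADH-oxidising module, differed by 0.84 ± 0.28 (limma adjusted p = 0.103) and Ndufv1, which binds NADH and flavin, by 0.73 ± 0.31 (limma adjusted p = 0.178). Ndufa8, an accessory subunit on the intermembrane space side, was called on 1 of its probes, with a difference of 1.52, while its other probe gave 1.35 and the gene 1.31 ± 0.37 (limma adjusted p = 0.064). The called probe of Ndufa8 held no value in 1-month sample 2. On the other probe that sample read 0.039, against -0.985 to -0.768 in the other 1-month samples. For the gene, the missing value was filled by the fit over both probes. Without 1-month sample 2 the gene passed (limma adjusted p = 0.039). At the low end, Ndufa3 read 1.58, 1.42, 0.96 and 0.84 at 1 month and 1.87, 1.73, 1.41 and 0.34 at 4 months, so that 4-month sample 4 was the lowest of all 8; its difference turned to -0.15 under quantile normalization. Ndufab1, the mitochondrial acyl carrier protein, and Ndufv3 had probes on both sides of 0, from -0.16 to 1.10 and from -0.05 to 0.83.

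Complex II, succinate dehydrogenase, links the citric acid cycle to the chain and has no subunits encoded in mitochondria. All 4 of its genes had differences between 0.84 and 1.27, with a median of 1.11, the highest median of the 5 complexes, although the complexes were not tested against each other. Sdhb, the iron-sulphur subunit, read 0.41, 0.63, 0.42 and 0.03 at 1 month and 1.67, 2.01, 1.81 and 0.85 at 4 months. No 1-month value reached the lowest 4-month value, and Sdhb rose by 1.17 ± 0.30 (n = 4 per age; limma adjusted p = 0.049). Among the fits that left out a sample, Sdhb passed without 4-month sample 4 (0.0049) and the other 7 gave adjusted p of 0.053 to 0.18. Its only probe was not called in the limma fit over all probes (adjusted p = 0.056). The membrane anchor Sdhc read -0.33, -1.28, -0.11 and -0.15 at 1 month and 1.00, 1.32, 0.55 and 0.41 at 4 months, which did not overlap either, with a difference of 1.27 ± 0.37 (limma adjusted p = 0.071). Sdhc passed when 1-month sample 3 (0.048) or 4-month sample 4 (0.031) was left out. The flavoprotein Sdha differed by 1.05 ± 0.36 (limma adjusted p = 0.105), and its 3 probes gave 1.79, 0.79 and 0.58, of which the first passed the test on its own. Sdhd, the other membrane anchor, was measured in 3 samples of 1 month and differed by 0.84 ± 0.38 (limma adjusted p = 0.221).

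Complex III and cytochrome c carry electrons from ubiquinone to complex IV. Their 10 genes all had positive differences, and 3 rose: Uqcrfs1, Uqcrc1 and Cycs. Complex III alone had 22.2% called higher, where 4.19% of all genes were. Uqcrfs1, the Rieske iron-sulphur protein, on chromosome 13, read -0.51, -0.40, 0.23 and 0.03 at 1 month and 1.19, 1.64, 1.68 and 0.64 at 4 months. Its difference was 1.40 ± 0.30 (n = 4 per age; limma adjusted p = 0.028), and it kept an adjusted p under 0.05 in 3 of the 8 fits that left out a sample, the rest giving 0.055 to 0.11 (without 1-month samples 1 and 2 and 4-month samples 1, 2 and 3 in turn). Uqcrc1, a core subunit of the matrix side, on chromosome 9, read 0.08, 0.32, -0.16 and -0.01 at 1 month and 1.29, 1.85, 1.73 and 1.03 at 4 months. It had the lowest adjusted p of the 82 subunits, with a difference of 1.38 ± 0.26 (limma adjusted p = 0.017), and its 2 probes, at 1.26 and 1.50, both passed; without 1-month sample 1 the adjusted p was 0.082. Uqcrc2, the other core subunit, had the smallest difference of the complex, 0.37 ± 0.26 (limma adjusted p = 0.441). It read 0.65 to 0.87 at 1 month and 1.30, 1.57, 1.33 and 0.57 at 4 months, so 3 samples lay above all of 1 month and sample 4 below them. Cyc1, the cytochrome c1 that passes electrons on, differed by 1.15 ± 0.42 (limma adjusted p = 0.125). Cycs itself, on chromosome 6, read 0.98, 1.38, 1.01 and 0.72 at 1 month and 2.27, 2.68, 2.57 and 1.75 at 4 months. The ages were apart in every sample, all 3 of its probes passed, and Cycs rose by 1.26 ± 0.28 (limma adjusted p = 0.031). The call was lost when 1-month sample 1, or any of 4-month samples 1, 2 and 3, was left out, with adjusted p of 0.068 to 0.13.

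**Figure D2:**
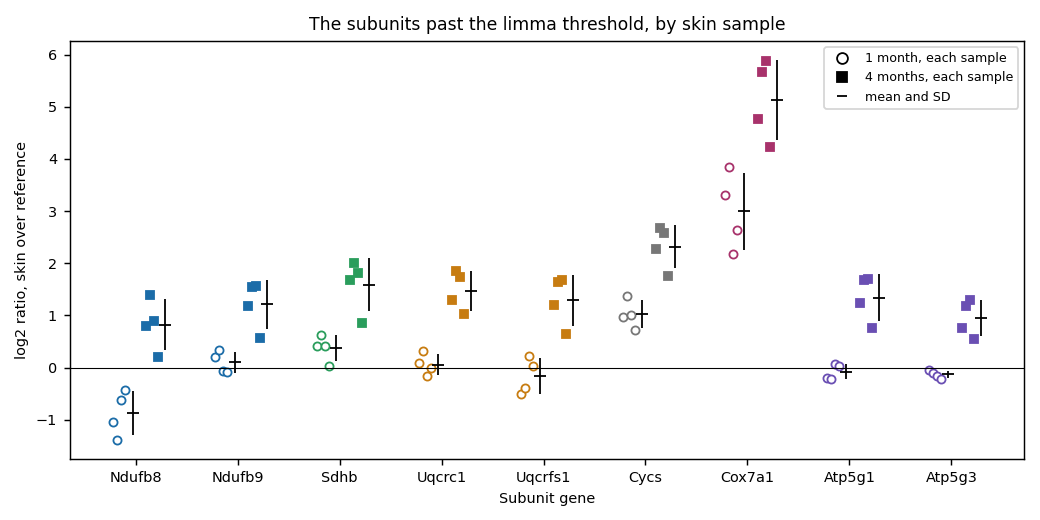
The vertical axis is the log2 ratio of skin over reference for the 9 subunits past the limma threshold; open circles are the 1-month samples, filled squares the 4-month samples, and the lines the mean and SD of 4 samples. For each gene the lowest 4-month square, in all cases sample 4, lies above the highest 1-month circle, and Cox7a1 has the highest ratios, from 2.18 to 5.87.

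Complex IV, cytochrome c oxidase, passes the electrons to oxygen. Its subunits had the widest range of differences of the 5 complexes, -1.05 to 2.05: of 16 tested, 11 had positive and 5 negative differences. Among the 12 forms common to all tissues none passed the test, with a median difference of 0.50. At an unadjusted p under 0.05 there were 5, or 41.7%, where 24.3% of all genes passed. Cox5a, a nuclear subunit that binds regulators on the matrix side, had the largest difference of these, 1.26 ± 0.35 (limma adjusted p = 0.059), with 0.07 to 0.89 at 1 month and 1.20 to 2.44 at 4 months. Cox4i1, the common form of the subunit needed for assembly of the complex, read -1.06 to -0.57 at 1 month and -0.20 to 0.72 at 4 months and differed by 0.99 ± 0.27 (limma adjusted p = 0.054). Both genes had ages that did not overlap. Cox7a2l, which as background joins complexes III and IV into a supercomplex, differed by -0.13 ± 0.23 (limma adjusted p = 0.793). Cox6b2, the testis form of a subunit that faces the intermembrane space, had the lowest difference of all subunits. It read 2.48, 2.22, 1.44 and 2.03 at 1 month and 0.31, 1.26, 0.97 and 1.49 at 4 months, so the highest sample of 4 months overlapped the lowest of 1 month. The difference was -1.05 ± 0.35 (limma adjusted p = 0.100); leaving out 1-month sample 3 made it pass as lower (adjusted p = 0.048), as did leaving out 4-month sample 4 (adjusted p = 0.039).

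The muscle and the common forms of the complex IV subunits 6A, 7A and 8 were set side by side because each pair takes the same place in the enzyme. Their promoters are shown for the 7A pair, whose muscle form was the one called, and for Cox6a1, whose promoter held a motif searched below. The stretches are the 200 bases before the start site from RefSeq on GRCm38.p6, each 5′ to 3′ on the strand of the gene: Cox7a1 at chr7:30183971-30184170 on the plus strand, Cox7a2 at chr9:79759854-79760053 on the minus strand, and Cox6a1 at chr5:115348959-115349158 on the minus strand. Capitals mark the NRF1 motif, and the first 2 stretches hold none of the 4 motifs searched.
Cox7a1: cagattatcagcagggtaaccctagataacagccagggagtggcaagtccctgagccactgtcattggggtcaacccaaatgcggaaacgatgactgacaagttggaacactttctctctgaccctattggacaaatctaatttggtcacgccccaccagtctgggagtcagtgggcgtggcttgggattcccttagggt
Cox7a2: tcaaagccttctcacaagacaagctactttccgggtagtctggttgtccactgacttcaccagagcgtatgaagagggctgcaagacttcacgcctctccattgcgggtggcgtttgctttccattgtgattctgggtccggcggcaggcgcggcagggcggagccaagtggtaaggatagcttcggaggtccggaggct
Cox6a1: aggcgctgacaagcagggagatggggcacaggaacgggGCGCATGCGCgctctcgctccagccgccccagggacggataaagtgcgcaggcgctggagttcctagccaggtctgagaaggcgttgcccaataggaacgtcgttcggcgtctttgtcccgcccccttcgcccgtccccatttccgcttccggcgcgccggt

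The muscle form Cox7a1, on chromosome 7, read 3.31, 3.85, 2.18 and 2.63 at 1 month and 4.76, 5.66, 5.87 and 4.23 at 4 months. All 8 skin samples were far above the reference RNA, the ages did not overlap, and Cox7a1 rose by 2.05 ± 0.47 (n = 4 per age, 95% interval 0.99 to 3.10; limma adjusted p = 0.034), the largest difference of the subunits. Leaving out 1-month sample 1, or any of 4-month samples 1, 2 and 3, its adjusted p was 0.058 to 0.13. Its call was also lost under quantile normalization (1.53, adjusted p = 0.060), with zeros kept as values (adjusted p = 0.085), on means per ID number (adjusted p = 0.151) and with the muscle lists as a covariate, where the difference was 1.33 (adjusted p = 0.144). The common form Cox7a2 read -0.12, 0.53, 0.30 and 0.13 at 1 month and 0.15, 0.07, 0.47 and -0.33 at 4 months. Those ages overlapped fully, and the difference was -0.15 with a 95% interval of -0.77 to 0.47. The muscle form Cox6a2 read 4.27, 3.59, 2.42 and 2.65 at 1 month and 5.26, 5.74, 5.68 and 4.09 at 4 months, where sample 4 lay below 1-month sample 1. Cox6a2 differed by 1.89 ± 0.50 (limma adjusted p = 0.053) and passed without 4-month sample 4 (adjusted p = 0.010). Its common form Cox6a1 differed by -0.33 with a 95% interval of -1.20 to 0.54, and its sign turned to 0.35 when the muscle lists entered the fit as a covariate. The muscle form Cox8b had the highest ratios of all subunits, 6.29, 7.69, 6.32 and 6.42 at 1 month and 6.58, 7.19, 8.39 and 7.21 at 4 months. There 1-month sample 2 lay above 3 of the 4-month samples, and the difference was 0.60 ± 0.52 (limma adjusted p = 0.526), or -0.56 with the muscle covariate. The common form Cox8a differed by -0.59 with a 95% interval of -1.33 to 0.16.

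Within each sample the muscle form was taken minus the common form, so that a shift shared by both forms cancels. The amount of muscle in a sample is not held fixed by this difference. For subunit 7A this value was 3.44, 3.32, 1.88 and 2.50 at 1 month and 4.61, 5.59, 5.41 and 4.56 at 4 months, with no overlap. Its change with age was 2.26 ± 0.45 (exact two-sided permutation p = 0.029, the smallest that 4 against 4 samples allow), and over the 3 pairs the adjusted exact p was 0.086. For subunit 6A the change was 2.36 ± 0.85, from a mean of 3.52 to 5.88 (exact permutation p = 0.086, adjusted 0.114). For subunit 8 it was 1.29 ± 0.70, from 6.98 to 8.28 (exact permutation p = 0.114, adjusted 0.114). None of the 3 passed after adjustment with all samples, and without 4-month sample 4 the exact tests for 6A and 7A had an adjusted p of 0.043, with changes of 2.88 and 2.42. All these exact tests treat the samples as independent. They do not use the ID number that some samples share and that the limma fit takes as a block, so their p-values may be too small. These log2 ratios are relative to the reference RNA, so a difference between 2 genes' ratios is not a ratio of their amounts, and only its change with age is compared.

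**Figure D3:**
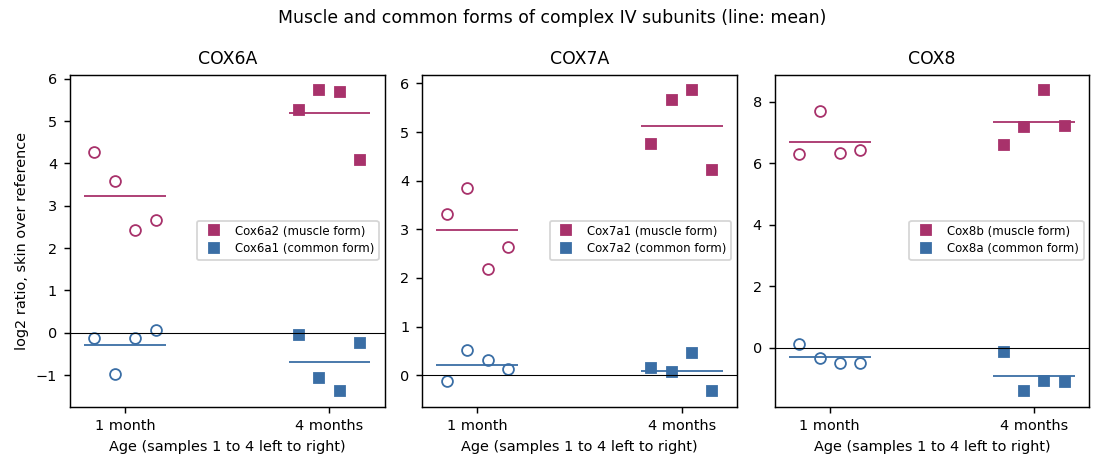
Each panel plots the log2 ratio of skin over reference for the muscle form and the common form of a complex IV subunit, with samples 1 to 4 from left to right at each age and a line at the mean of 4 samples. The muscle forms lie above the common forms in every sample, and of the 3 muscle forms only Cox7a1 has all 4-month samples above all 1-month samples.

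Complex V, the ATP synthase, had positive differences for all 17 genes, with a median of 0.50 and a range of 0.04 to 1.37. The test called 2, or 11.8%, where 4.19% of all genes were called higher. Both encode the c subunit, whose ring turns in the membrane as protons pass. As background, Atp5g1, Atp5g2 and Atp5g3 encode the same mature protein with different targeting sequences, and whether their probes also take RNA of the other genes was not tested. Atp5g1, on chromosome 11, read -0.20, -0.22, 0.07 and 0.03 at 1 month and 1.23, 1.69, 1.69 and 0.76 at 4 months. Atp5g3, on chromosome 2, read -0.05, -0.10, -0.16 and -0.22 at 1 month and 0.76, 1.19, 1.29 and 0.55 at 4 months. Both were near the reference level in all 1-month samples and above it in all 4-month samples. Atp5g1 rose by 1.37 ± 0.27 (n = 4 per age; limma adjusted p = 0.019) and, of the 8 fits that left out a sample, lost the call in the one without 1-month sample 1 (adjusted p = 0.083). Atp5g3 rose by 1.04 ± 0.24 (limma adjusted p = 0.032) and lost it without 1-month samples 1 and 2 and 4-month samples 1, 2 and 3 in turn, with adjusted p of 0.060 to 0.12. Atp5g2 differed by 0.39 ± 0.27 (limma adjusted p = 0.430), with 4-month sample 4, at -0.71, the lowest of the 8. The differences between these 3 genes were not tested. The catalytic subunits of the head, Atp5b and Atp5a1, differed by 0.97 ± 0.30 and 0.82 ± 0.26 (limma adjusted p = 0.085 and 0.092). Of the probes of Atp5a1, 1 was called at 1.21 and the others gave 1.00 and 0.27. Atp5pb, the peripheral stalk subunit b, had probes on both sides of 0, from -0.16 to 0.76. Atp5l, subunit g of the membrane part, had the smallest difference, 0.04 ± 0.23 (limma adjusted p = 0.947), and its sign turned in some of the other fits.

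The promoters of the subunits were searched on both strands for 4 motifs of factors known to act on mitochondrial genes, in RefSeq windows of 250 bases before and 50 after the start site. A window was found for 70 of the 85 genes, and 5 of these had 2. The nuclear respiratory factor 1 (NRF1) motif, the letters GCGCA followed by their reverse complement, stood in 6.67% of the 75 subunit windows, those of Atp5g2, Atp5k, Cox6a1, Ndufa11 and Uqcrc1, against 0.97% of all 32851 windows. The YY1 motif AAGATGGCG stood in 9.33%, against 1.4%, and 5 of the 7 genes that hold it, Ndufa9, Ndufc1, Ndufs4, Ndufs6 and Ndufs7, belong to complex I. Complex I has 35 of the 85 subunit genes, and whether it holds the motif more often than the other complexes was not tested. The GABPA motif CCGGAAGT stood in 6.67%, against 3.89%, and the oestrogen-related receptor (ERR) motif TCAAGGTCA in 2.67%, those of Atp5g3 and Sdhd, against 0.42%. Of the 9 called genes 8 have a window, and among these Uqcrc1 holds the NRF1 motif and Atp5g3 the ERR motif. The Atp5g3 stretch is printed because the gene was called and Esrra, which encodes a receptor of that family, was called too. It is RefSeq's GRCm38.p6 sequence at chr2:73911327-73911526 on the minus strand, the 200 bases before the start site, with the ERR motif in capitals as its reverse complement 52 bases before the start.
Atp5g3: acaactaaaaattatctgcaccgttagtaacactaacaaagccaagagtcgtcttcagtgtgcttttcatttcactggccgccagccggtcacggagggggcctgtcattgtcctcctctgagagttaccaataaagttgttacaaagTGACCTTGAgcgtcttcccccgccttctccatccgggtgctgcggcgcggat

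A match of letters is no measured site, and no binding was measured here. None of the printed stretches holds more than 1 of the 4 motifs.

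The 4-month sample medians fell in nearly the same order in each complex, with sample 2 highest and sample 4 lowest in all 5, while the order of the 1-month samples changed from complex to complex. The median ratio over the subunits was 0.53, 0.50, 0.37 and 0.29 in 1-month samples 1 to 4 and 1.19, 1.50, 1.27 and 0.47 in 4-month samples 1 to 4. So 3 of the 4-month samples lay well above all of 1 month, and sample 4 lay below 1-month samples 1 and 2. Complex II departed from this, with 0.85 in 4-month sample 4 against at most 0.415 at 1 month, over its 3 genes with values in all 8 samples. In complex V, 4-month sample 4 lay just above the 1-month samples, at 0.478 against at most 0.472. Of the 81 subunits with values in all 8 samples, sample 4 was the lowest of 4 months for 72 and sample 2 the highest for 49. Samples 1, 2 and 3 each exceeded all 1-month samples for 72, 72 and 67 of the 81 subunits, sample 4 for 26. At 1 month no sample held such a place: the highest value fell in samples 1 and 2 for 34 and 31 subunits, and the lowest in samples 2 and 4 for 27 and 31. The shares of all genes with these sample orders were not computed, so the counts only describe the subunits. The arrays hybridised for the same sample gave subunit values with a median difference of -0.08 (SD 0.40 over 112 probes) for 1-month sample 1 and -0.005 (SD 0.44 over 111 probes) for 4-month sample 2.

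Skeletal muscle is rich in mitochondria, and its markers were measured beside the subunits. Over all genes 4.19% were called higher, the share to set beside the counts of these lists. The fast muscle list had medians of 4.51, 5.75, 4.27 and 4.49 at 1 month and 5.07, 5.68, 6.68 and 5.17 at 4 months, so that 1-month sample 2 lay above 3 of the 4-month samples. Of the 18 fast muscle genes 3 rose: Cacna1s, the calcium channel of the muscle membrane, by 2.84, Eno3, the muscle enolase, by 2.77, and Atp2a1, the calcium pump of fast fibres, by 1.14 (limma adjusted p = 0.012, 0.0078 and 0.046). Of the 18 differences 15 were above 0, with a median of 0.41, and those that did not pass ran from -0.08 for the creatine kinase Ckm to 1.86 for the actinin Actn3, whose ages did not overlap (limma adjusted p = 0.057). The fast myosins Myh4, Myh1 and Myh2 differed by 0.30, 0.23 and 0.12, with overlapping ages (limma adjusted p = 0.857, 0.881 and 0.957). Of 10 structural muscle genes 3 rose, Des by 2.52, Ldb3 by 2.00 and Myom1 by 2.00, and all 10 differences were positive. None of 9 slow muscle genes passed, and their sample medians spanned -0.40 to 1.97 in the younger skin and 0.01 to 3.14 in the older. A further fit took the mean level of the fast, slow and structural muscle genes as a covariate. With it the median difference of the subunits was 0.61 and 75 of 82 were above 0. In that fit 2 subunits were called, Atp5b and Sdhc, where 0.533% of all genes were called higher, and none of the 9 named above was. The covariate removes anything that moves with those lists, and how much of each subunit's difference comes from muscle was not tested.

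Markers of other cell types were read as well. None of the genes tested for white fat (9), keratinocytes (8), dermal fibroblasts (8), immune cells (5) or endothelial cells (5) passed in either direction, and at an unadjusted p under 0.05 the counts were 1, 0, 2, 3 and 2, where 24.3% of all genes passed. All 5 immune genes had positive differences, with a median of 0.76, up to 1.26 for the integrin Itgam, whose ages did not overlap (limma adjusted p = 0.051). All 5 endothelial genes were above 0 too, with a median of 0.42. The ages did not overlap for 2 of them, Tek and Vwf, where 10.9% of all genes were higher at 4 months without overlap. Tek held a value in only 3 samples of each age. The fibroblast list had a median of -0.65, with 3 of 8 genes above 0, and its lowest was the collagen Col1a2 at -1.65, whose ages did not overlap (limma adjusted p = 0.098). Of the list for brown fat, whose mitochondria are abundant, Cpt1b and Ppargc1a rose, but both are also made in muscle. The brown fat genes Cidea and Elovl3 differed by 0.37 and 0.10 and did not pass, and Ucp1, the defining gene of brown fat, held a value in no more than 4 of 8 samples. The part of these lists in the subunit differences was not tested.

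**Figure D4:**
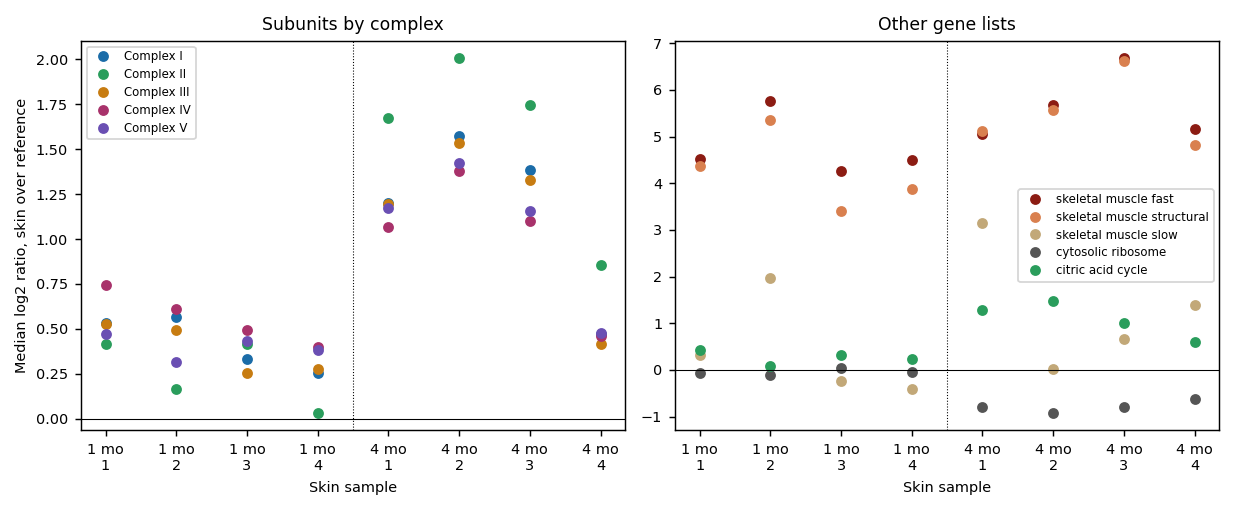
The left panel plots the median log2 ratio of skin over reference of the subunits of each complex in each of the 8 skin samples, and the right panel the medians of 5 other gene lists; the dotted line separates the ages. On the left, 4-month samples 1 to 3 lie high and sample 4 falls into the 1-month range for complexes I, III and IV and just above it for complex V, while on the right the fast muscle list has its highest values in 1-month sample 2 and 4-month samples 2 and 3.

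The genes around the chain were read by lists of the pathway. Over all 13501 genes 4.19% were called higher and 3.06% lower, the shares to set beside the counts of each list. Among the regulators of mitochondrial genes 2 of 18 rose: Ppargc1a, the coactivator PGC-1α, by 1.47 ± 0.28 (limma adjusted p = 0.018) and Esrra, a nuclear receptor that works with it, by 0.84 ± 0.22 (limma adjusted p = 0.048). Of the 8 fits that left out a sample, Ppargc1a lost its call in the one without 1-month sample 1 (adjusted p = 0.088); it also missed on means per ID number (0.121), with the muscle covariate (0.083) and with the strongest probe (0.051). Of the same 8, Esrra passed only without 4-month sample 4 (0.032), the others giving 0.053 to 0.19. The related coactivator Ppargc1b differed by 1.39 ± 0.39 (limma adjusted p = 0.062). The other regulators ranged down to -0.46 for Pprc1, with 0.48 for Tfam, which packs mitochondrial DNA, and -0.44, -0.29 and -0.30 for Nrf1, Gabpa and Yy1, the genes of the factors whose motifs were searched. The median of the list was 0.27.

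The assembly factors of complex I had 2 of 13 called higher, Ecsit by 1.34 and Ndufaf5 by 1.26, with a list median of 0.15. Acad9, another of them, differed by -0.95 and did not pass (limma adjusted p = 0.111). For complexes II to V, 2 of 29 assembly factors were called higher, where 4.19% of all genes were. They were Uqcc1 of complex III, by 1.31, and Cox11, which delivers copper to complex IV, by 1.18. The assembly factors of complexes II to V had a median of 0.48. Atpif1, the inhibitor of the ATP synthase, was listed with them and differed by -0.95 ± 0.30, with ages that did not overlap (limma adjusted p = 0.087). Of 11 carriers and entry points outside the complexes, Gpd2, which passes electrons from glycerol phosphate to ubiquinone, rose by 1.82, and Coq9, needed to make ubiquinone, by 1.80.

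The carriers of the inner and outer membrane, which move ADP, ATP, phosphate and other metabolites, had the highest share of calls of the pathway lists, with 5 of 8 genes higher and 1 lower. Slc25a4, the ADP/ATP carrier of heart and skeletal muscle, went from a mean of 0.49 ± 0.11 to 3.07 ± 0.63 (SD, n = 4 per age) and rose by 2.51 ± 0.32 (limma adjusted p = 0.0070), a call that held in each of the 8 fits that left out a sample. Slc25a5, the carrier of proliferating and many other cells, went the other way, from 0.81 ± 0.53 to -0.90 ± 0.69, and fell by 1.64 ± 0.41 (limma adjusted p = 0.043); among those 8 fits it passed in those that lacked 1-month sample 2 (0.042) or 4-month sample 4 (0.0074), and the rest gave 0.056 to 0.17. Like the complex IV pairs, this pair holds a muscle and a more general form of a protein with the same role; the difference between its members was not tested. The outer membrane channels Vdac1 and Vdac3 rose by 1.78 and 1.36, the oxoglutarate carrier Slc25a11 by 1.31 and the phosphate carrier Slc25a3 by 1.18.

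Upstream of the chain, 4 of 12 citric acid cycle genes rose, Idh3b by 1.50, Sucla2 by 1.32, and Mdh2 and Idh3a by 1.13 each, and all 12 had positive differences with a median of 0.92. Of 12 fatty acid oxidation genes 4 rose as well, Cpt1b, the muscle enzyme that lets fatty acids enter mitochondria, by 3.01, and the acyl-CoA dehydrogenases Acadl, Acadm and Acadvl by 1.31, 1.29 and 1.27. The mitochondrial ribosome, which makes the subunits encoded in mitochondria, had 1 of 78 genes called higher, Mrps34 by 1.04. That is below the share of 4.19% over all genes, and the list median was 0.20. The cytosolic ribosome, read as a contrast, had 15 of 75 genes called lower and none higher, where 3.06% of all genes were called lower. The called genes were led by Rps26 at -1.20, Rpl15 at -1.19, Rpl41 at -1.16 and Rpl29 at -1.13. The cytosolic ribosome had a median of -0.76. Its sample medians lay between -0.11 and 0.05 in the younger skin and between -0.92 and -0.63 in the older, with 4-month sample 4 at -0.63 apart from 1 month like the other 3.

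**Figure D5:**
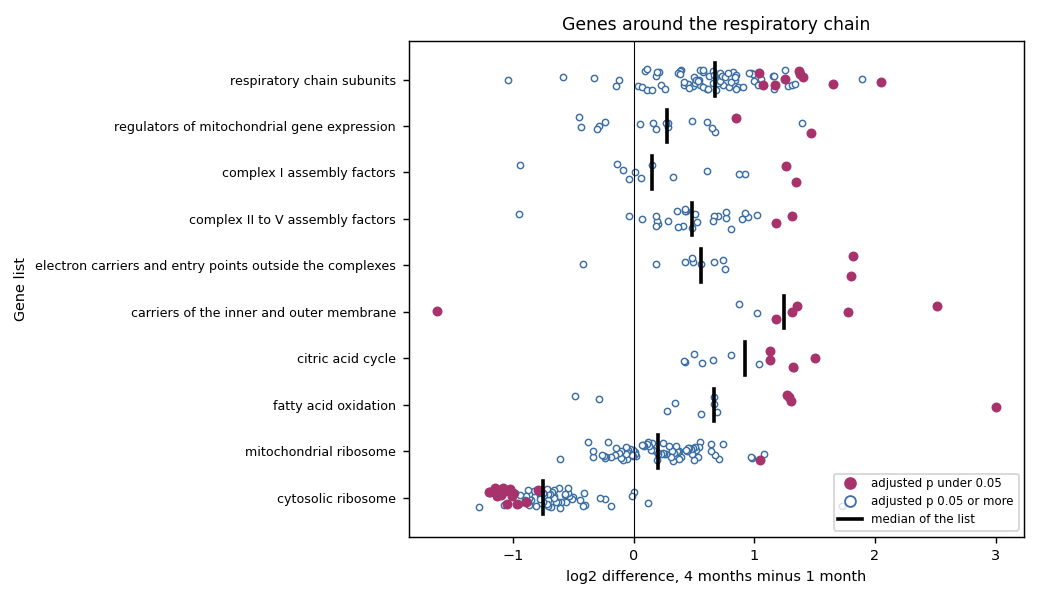
Each row is a gene list around the respiratory chain and each point a gene, placed by its log2 difference of 4 months minus 1 month; filled points have an adjusted p under 0.05 and the bar is the median of the list. Medians run from -0.76 for the cytosolic ribosome to 1.25 for the membrane carriers, where Slc25a5 is the filled point to the left of 0.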

How the data were processed

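RNA of 8 Tsk2 skin samples was measured on 10 arrays of 2 colours. The deposited values are log ratios, taken as log2, with a median of 0 on each array, per the series' value table; the normalization behind them is not given in the sources used here. An exact 0 (26.1% to 47.4% of probes per array) was read as not measured. The sign was turned to skin over reference. Genes were named through the platform annotation: 45 probes with several symbols and 8465 with none were left out. Probes of a gene were averaged, with an additive probe and sample fit for missing values (5 subunits). The arrays of 1-month sample 1 and 4-month sample 2 were averaged. Genes with values in at least 3 samples per age were tested in limma 3.58.1 (R 4.3.3), with the ID number in the sample titles, 2 at 1 month and 3 at 4 months, as a random block (correlation 0.313, statmod 1.5.0) and Benjamini-Hochberg adjustment over all 13501 genes. What the ID number stands for is not given. The number after it, shared between ages, is not stated to pair samples. Named genes were all subunits called, called on some probes only, or not tested, the extremes of each complex and the isoform pairs. Each other list gave up to 4 called genes, the membrane carriers all called genes, and the regulators their range. Outside that rule, Ndufab1, Ndufv3 and Atp5pb were named because their probes lay on both sides of 0. Ndufs7, Ndufs1, Ndufv1, Cyc1, Cox5a, Cox4i1, Cox7a2l, Atp5b, Atp5g2, Uqcrc2, Ckm, Actn3, Myh4, Myh1, Myh2, Itgam, Tek, Vwf, Col1a2, Cidea, Elovl3, Acad9 and Atpif1 were added after their values were seen. The subunits and the gene lists were chosen with earlier results of these data known. The number of arrays limits the precision.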

Additional observations from a re-analysis of the deposited data

Results flagged for a closer look

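The samples of each named subunit at each age made 46 sets. The 1-month set of Sdhd held only 3 values and was not checked. Of the sets of 4 samples checked, 2 held a sample far from the other 3, and chance alone gives about 5% of such sets. Cox8b, the muscle form of subunit 8, was 7.69 in 1-month sample 2, where the other 1-month samples read 6.29 to 6.42, a gap of 0.909 of the whole range, above the limit of Dixon's test for 4 samples. Sdha was 0.165 in 1-month sample 2, where the others read 0.95 to 1.03, a gap of 0.903. Both lie in the same sample, which had the highest fast muscle median of 1 month, 5.75.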

How the results depend on the processing

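The number of subunits called higher, 9 in the fit described, was 27 without the ID number as a block and 0 on means per ID number. It was 4 with the number after the ID added as a fixed term, the block being kept. It was 5 with zeros kept as values, 5 with the first array of each sample and 2 with the muscle covariate. With the first array 2.96% of all genes were called higher. When 1 sample was left out the number of subunits called higher was 0 to 45. On means per ID number no gene of the 13501 was called, with 2530 genes and 24 subunits at an unadjusted p under 0.05. Quantile normalization gave 9, 8 of them the same genes, median centring 12, the second array 13 and the strongest probe 9, 7 of them the same. The shares of all genes called higher in these fits were 4.32%, 4.44%, 4.82% and 3.86% in turn. Leaving out 1-month sample 2 and 4-month sample 3 together, a choice made after seeing the data, gave 10. There 5.42% of all genes were called higher. Subunits called lower numbered 0 to 1 when a sample was left out. Over all these fits the median difference of the subunits stayed between 0.57 and 0.92. Over all genes, the count called higher was 566. It became 1113 without the block, 0 on ID means, 349 with the number after the ID as a fixed term and 72 with the muscle covariate. It was 337 with zeros kept and 102 to 1215 with a sample left out. The count called lower, 413, became 909, 0, 232 and 96 in the first 4 of these fits. With a sample left out the count called lower was 55 to 957. Atp5l turned to -0.00058 on ID means, -0.070 under quantile normalization and -0.15 with the covariate, and ranged from -0.049 to 0.19 with a sample left out. Ndufa3 turned to -0.15 under quantile normalization and ranged from -0.12 to 0.48, and Cox7a2 ranged from -0.31 to 0.014. With the covariate Cox6a1 was 0.35 and Cox8b -0.56. With a sample left out the change within pairs was 1.97 to 2.88 for 6A, 1.95 to 2.47 for 7A and 0.89 to 1.82 for 8. The causes of these changes were not tested. Atp5g1, Ndufb8 and Uqcrc1 were called in 17 of 20 fits, Cycs and Cox7a1 in 12, Atp5g3 in 11, Uqcrfs1 in 10, and Ndufb9 and Sdhb in 6.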
